A study of Mus musculus with 9 samples.

Results

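Red blood cell transcripts were followed in mouse lung after instillation of PM2.5, fine airborne particulate matter. The 5 genes described are Hba-a1, Hbb-b1 and Hbb-b2, which encode adult haemoglobin chains, Alas2, which encodes the enzyme that starts haem synthesis in red cell precursors, and Slc4a1, which encodes band 3, the anion exchanger of the red cell membrane. They were taken by gene symbol from the 18875 genes of the expression table, and were chosen by their TPM values in these same libraries, which were known to be lower after long-term PM2.5. Their levels and differences are therefore given as a description, with no test.

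RNA came from the whole lung of BALB/c mice of wild-type genotype, an inbred strain, in 3 groups of 3 libraries. The long-term PM2.5 group received particles through the nose 6 times, once every 3 days, at 10 mg/kg each. The short-term PM2.5 group received 10 mg/kg 1 time. The PBS group is labelled as exposed to PBS, the saline vehicle, over the long term. No PBS libraries of short duration were analysed here, so short-term lungs are set against a PBS group of another duration. How long after the last dose the lungs were taken, and whether the blood was flushed out of them, was not stated in the labels, and nothing in the labels says that the 3 libraries of a group came from separate mice. Levels are in TPM, a unit in which transcripts are counted per length and every library sums to the same total, and a difference is between group means of log2(TPM + 1).

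Haemoglobin is a tetramer of alpha and beta chains, each holding a haem group with an iron atom that binds oxygen. Mature red cells of mammals have no nucleus, and the youngest of them in the blood, reticulocytes, still hold much globin mRNA and a remnant of other transcripts of the precursor. In a bulk lung library, red cell mRNA comes mainly with the blood in the vessels, although alveolar type 2 cells, the surfactant-making cells of the alveolus, are also known to transcribe globin genes. In a bulk sample, fewer cells of a type and less RNA per cell cannot be told apart. Mouse alpha globin is encoded by the near-identical copies Hba-a1 and Hba-a2. BALB/c mice carry the diffuse haplotype of the beta cluster, with Hbb-b1 for beta-major and Hbb-b2 for beta-minor, whereas the reference genome comes from C57BL/6 mice with the single haplotype, Hbb-bs and Hbb-bt.

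Promoter sequences are shown for Hba-a1 and Alas2, whose transcripts were lower together after long-term PM2.5. They are the 250 bases before the start site in RefSeq on GRCm38.p6, both on the plus strand, at chr11:32283422-32283671 for Hba-a1 and chrX:150547167-150547416 for Alas2. Capitals mark matches, on either strand, to AGATAA (bound by GATA factors such as Gata1), CACCC (bound by Krueppel-like factors such as Klf1), CCAAT (bound by NF-Y) and TATAAA (the TATA box). Only these exact strings were searched for. Near variants, such as those of AGATAA and TATAAA in the Hba-a1 window, stay in small letters, so a missing mark does not mean a missing site.
Hba-a1 promoter: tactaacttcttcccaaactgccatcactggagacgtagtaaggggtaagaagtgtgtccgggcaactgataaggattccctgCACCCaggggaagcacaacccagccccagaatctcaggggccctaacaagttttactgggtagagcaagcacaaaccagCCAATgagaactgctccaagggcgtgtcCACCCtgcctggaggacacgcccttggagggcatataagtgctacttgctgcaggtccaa
Alas2 promoter: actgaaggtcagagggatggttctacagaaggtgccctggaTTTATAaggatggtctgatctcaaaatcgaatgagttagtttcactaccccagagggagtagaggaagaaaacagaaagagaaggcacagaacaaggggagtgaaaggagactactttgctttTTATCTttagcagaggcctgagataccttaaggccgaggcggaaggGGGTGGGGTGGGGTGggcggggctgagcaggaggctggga
In the Hba-a1 window CACCC was found at -167 to -163 and at -60 to -56, and CCAAT at -88 to -84, counted from the start site. In the Alas2 window the matches were on the minus strand, with AGATAA at -86 to -81, CACCC 3 times between -40 and -26, and TATAAA at -209 to -204. Of 27025 RefSeq windows of the same length, 51.3% held CACCC, 34.5% CCAAT, 13% TATAAA and 10.3% AGATAA. The CACCC match that both windows share was thus present in about as many windows as not. The Hba-a2 window was the same as that of Hba-a1 in all 247 bases compared. No promoter is shown for Hbb-b1, Hbb-b2 and Slc4a1. Gene positions given with each gene are on GRCm38.p6 too.

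The coding sequences of Hba-a1 and Hba-a2 are shown around their difference, the 1 coding base by which reads can be divided between these copies. Over 429 coding bases they differ by C381T (Hba-a1 base first, counted from the A of the start codon), an identity of 99.8% in GENCODE M21. The longest run shared by the whole annotated transcripts, which includes bases before the start codon, was 415 bases. The bases shown run from coding position 367 to 395, with the differing base in capitals.
Hba-a1 coding: catgcctctctggaCaaattccttgcctc
Hba-a2 coding: catgcctctctggaTaaattccttgcctc
All 74 annotated bases after the Hba-a1 stop codon also occur in Hba-a2, which has 90. Reads from most of the coding sequence are therefore the same for both copies, and the value of each copy alone rests on how the authors' counting divided them. The annotated transcripts also differ in length, with 699 bases for Hba-a1 and 554 for Hba-a2, so reads from their ends can separate the copies too.

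Some libraries stood apart from the rest. The short-term libraries were low in long transcripts. The median log2 difference from the PBS mean in the fifth of genes with the longest transcripts, minus that in the fifth with the shortest, was -1.43 to -0.65 in them, against -0.20 to -0.13 in long-term and -0.051 to 0.042 in PBS libraries. They also had fewer genes at 1 TPM or more, 12560 to 13414, against 13829 to 13930 in long-term and 13534 to 13615 in PBS libraries. The median gene was lower by 0.34 on the log2 scale in short-term than in PBS libraries. The libraries had been treated with duplex-specific nuclease, which lowers abundant transcripts such as globin mRNA, and how evenly it acted cannot be seen from TPM. As a check of the labelled tissue, the club cell gene Scgb1a1 was the most abundant gene in every library, and the surfactant gene Sftpc was in place 2 to 4.

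Alpha globin was lower in long-term PM2.5 lungs than in either other group. Hba-a1 (gene 15122, chr11:32283672-32284486) had 8254, 12435 and 13958 TPM in long-term libraries, 27897, 16354 and 32271 TPM in short-term libraries and 35427, 48087 and 23203 TPM in PBS libraries. Every long-term library lay under every other library, while short-term and PBS libraries overlapped. The mean was 11549 ± 2953 TPM after long-term PM2.5 and 35573 ± 12443 TPM with PBS (SD, n = 3 each), a log2 difference of -1.60 ± 0.33 (SE), or 3.02-fold lower. After quantile normalization, which replaces values by those of the same rank, the difference was -0.86. Short-term lungs averaged 25508 ± 8223 TPM, -0.47 ± 0.33 on the log2 scale against PBS. Despite its lower level, Hba-a1 still held place 3 to 5 by abundance in the long-term libraries.

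The second alpha copy was lower in long-term than in short-term lungs, but overlapped between long-term and PBS libraries. Hba-a2 (gene 110257, chr11:32296492-32297310) had 5812, 8970 and 10242 TPM in long-term libraries, 21724, 11901 and 23897 TPM in short-term libraries and 8750, 12055 and 16996 TPM in PBS libraries. Long-term replicates 2 and 3 lay within the PBS range, and the log2 difference between long-term and PBS lungs was -0.58 (adjusted p = 0.351 in limma, over 13991 tested genes). Between short-term and PBS lungs it was 0.59 (adjusted p = 0.142), opposite in sign to the -0.47 of Hba-a1, and it passed without short-term replicate 2 (0.91, adjusted p = 0.0185). Hba-a2 fell in long-term against short-term lungs (log2 difference -1.18, adjusted p = 0.0139), a call lost with quantile normalization (-0.59, adjusted p = 0.143), without long-term replicate 1 (adjusted p = 0.0597) or without short-term replicate 3 (adjusted p = 0.0502). Hba-a2 made up 41.3%, 41.9% and 42.3% of alpha globin in long-term libraries and 43.8%, 42.1% and 42.5% in short-term libraries, but 19.8%, 20.0% and 42.3% in PBS replicates 1, 2 and 3. PBS replicates 1 and 2 thus stood apart in the division between the copies, while PBS replicate 3 was like the 6 PM2.5 libraries.

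The sum of the copies does not depend on that division. Their sum was 14066, 21405 and 24199 TPM in long-term libraries, 49622, 28255 and 56168 TPM in short-term libraries and 44177, 60142 and 40199 TPM in PBS libraries. Again every long-term library lay under every other library. The log2 difference of summed alpha globin was -1.29 ± 0.30 between long-term and PBS lungs, -0.15 ± 0.30 between short-term and PBS lungs and -1.14 ± 0.30 between long-term and short-term lungs. This sum was added after the split in PBS lungs had been seen. In both comparisons with PBS, the log2 difference of the sum was smaller in size than that of Hba-a1 alone.

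**Figure D1:**
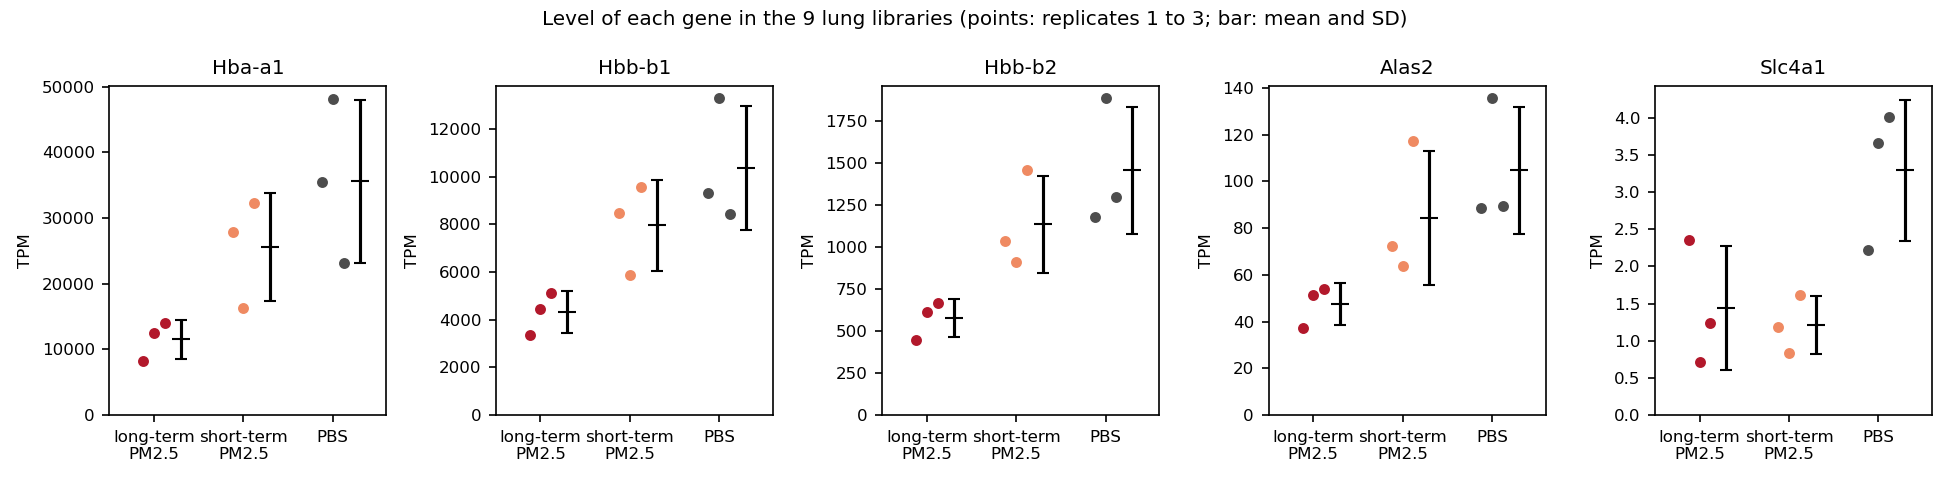
TPM (linear axes) of the 5 genes in each library, a panel per gene, in long-term PM2.5, short-term PM2.5 and PBS lungs. Points are libraries, bars the mean and SD of 3; in the first 4 panels every long-term point lies under every short-term and PBS point, and in the Slc4a1 panel long-term and PBS points overlap at 2.36 and 2.22 TPM.

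Beta globin showed nearly the same difference as alpha globin with copies summed. Hbb-b1 (gene 15129, chromosome 7), the beta-major gene, had 3375, 4460 and 5119 TPM in long-term libraries, 8467, 5857 and 9568 TPM in short-term libraries and 9306, 13305 and 8449 TPM in PBS libraries. The long-term libraries lay under all others, and the short-term libraries reached into the PBS range. The mean was 4318 ± 881 TPM after long-term PM2.5 and 10353 ± 2592 TPM with PBS (SD, n = 3 each), a log2 difference of -1.25 ± 0.24, or 2.39-fold lower. With Hbb-b1 and Hbb-b2 summed it was -1.26 ± 0.24, beside the -1.29 of summed alpha globin. Hbb-b1 was the gene in place 11 to 20 by abundance in long-term libraries, 6 to 12 in short-term libraries and 4 or 5 in PBS libraries.

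Hbb-b2 (gene 15130, chromosome 7), the beta-minor gene, had lower levels and the same order of groups. It had 448, 614 and 664 TPM in long-term libraries, 1034, 909 and 1460 TPM in short-term libraries and 1181, 1885 and 1299 TPM in PBS libraries. Long-term libraries did not overlap the others. The log2 difference was -1.33 ± 0.23 between long-term and PBS lungs, or 2.51-fold lower, and -0.36 ± 0.23 between short-term and PBS lungs. Hbb-b2 made up 11.7%, 12.1% and 11.5% of the beta globin sum in long-term libraries, 10.9%, 13.4% and 13.2% in short-term libraries and 11.3%, 12.4% and 13.3% in PBS libraries. These shares overlapped between all groups, so the beta genes, unlike the alpha copies, kept a similar split in every library. Reads that fit both beta genes can move between them, so each alone is less certain than their sum.

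The other globin genes were near zero. Hbb-bs, the beta gene of the C57BL/6 haplotype, had 1.39 to 6.95 TPM over all libraries, and Hbb-bt, its partner, was listed at 0 in 7 libraries and at 0.19 and 0.54 TPM in short-term replicates 1 and 3. Together they came to 0.0143% to 0.0739% of all beta globin, in lungs of a strain labelled BALB/c. The embryonic and theta-like genes Hba-x, Hbb-bh1, Hbb-bh2, Hbq1a and Hbq1b had 0 to 2.59 TPM.

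Haemoglobin took a smaller share of the transcripts after long-term PM2.5. Hba-a1, Hbb-b1 and Hbb-b2 together took 1.21%, 1.75% and 1.97% of TPM in long-term libraries, 3.74%, 2.31% and 4.33% in short-term libraries and 4.59%, 6.33% and 3.30% in PBS libraries. With Hba-a2 and the rare globins, the mean share was 2.48% ± 0.622 in long-term, 5.38% ± 1.67 in short-term and 6.00% ± 1.35 in PBS lungs (SD, n = 3 each). Since all libraries sum to the same TPM, these shares bear on the TPM of every other gene. With TPM rescaled to the total without globin genes, the median log2 difference of the 5 genes was -1.31 between long-term and PBS lungs, against -1.25 as deposited.

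**Figure D2:**
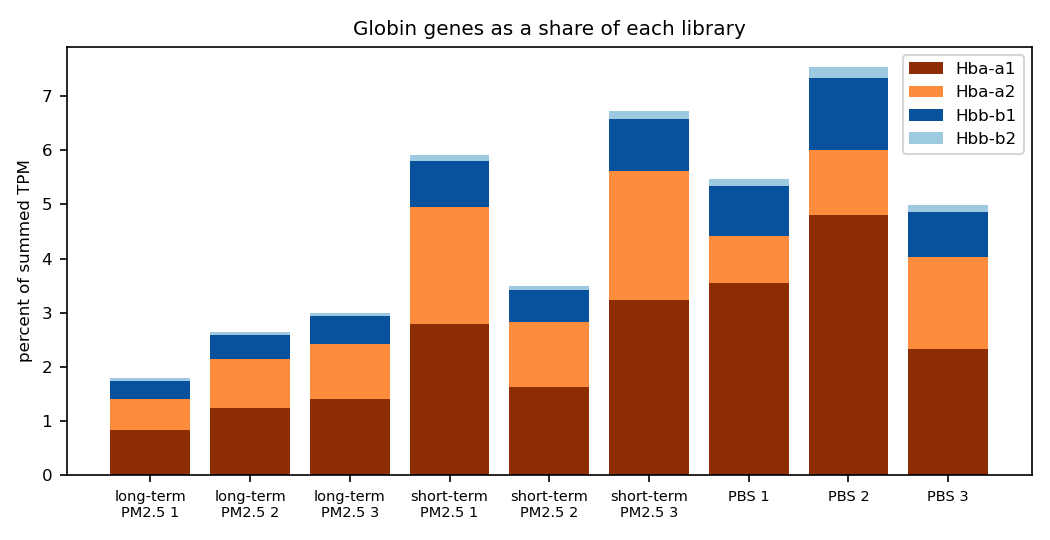
Percent of summed TPM taken by the 4 adult globin genes in each library, stacked by gene (linear axis from 0). The long-term bars reach 1.79% to 3.0%, the short-term bars 3.50% to 6.72% and the PBS bars 4.995% to 7.53%, and the Hba-a2 part is smaller relative to Hba-a1 in PBS replicates 1 and 2 than in the other libraries.

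The balance of alpha to beta globin was alike in long-term and PBS lungs. The ratio of summed alpha to summed beta TPM was 3.68, 4.22 and 4.18 in long-term libraries, 5.22, 4.18 and 5.09 in short-term libraries and 4.21, 3.96 and 4.12 in PBS libraries. It was highest in short-term replicates 1 and 3, and long-term and PBS libraries overlapped. With Hba-a1 alone in place of the alpha sum the ratio was 2.16 to 2.45 in long-term, 2.42 to 2.94 in short-term and 2.38 to 3.38 in PBS libraries, the highest being PBS replicates 1 and 2.

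**Figure D3:**
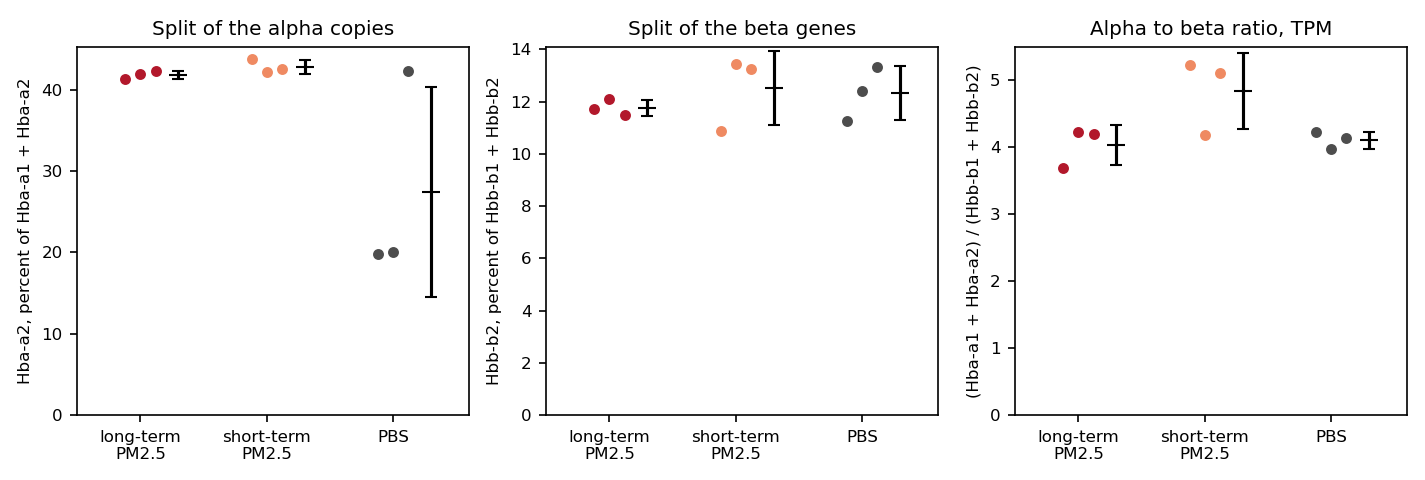
Hba-a2 as a percent of alpha globin, Hbb-b2 as a percent of beta globin and the ratio of alpha to beta globin, for each library (points, linear axes from 0) with mean and SD of 3. PBS replicates 1 and 2, at 19.8% and 20.0%, lie far under the other 7 libraries in the first panel and within the range of the other groups in the second.

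Alas2 (gene 11656, chrX:150547417-150570622), the erythroid enzyme that joins glycine and succinyl-CoA, followed the globins at a far lower level. It had 37.4, 51.2 and 54.0 TPM in long-term libraries, 72.2, 63.7 and 117 TPM in short-term libraries and 88.6, 135.9 and 89.4 TPM in PBS libraries. All long-term libraries were under all others, and short-term and PBS libraries overlapped. The mean was 47.5 ± 8.87 TPM after long-term PM2.5 and 104.6 ± 27.0 TPM with PBS (SD, n = 3 each), a log2 difference of -1.11 ± 0.25, or 2.16-fold lower. The short-term mean was 84.3 ± 28.7 TPM, a log2 difference of -0.33 ± 0.25 against PBS. Set against the globins, Alas2 had 2.09, 1.93 and 1.80 TPM per 1000 TPM of globin in long-term libraries, 1.22, 1.82 and 1.74 in short-term libraries and 1.62, 1.80 and 1.79 in PBS libraries. The groups overlapped on this ratio, and short-term replicate 1 was the lowest library.

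Slc4a1 (gene 20533, chr11:102348820-102365281) had its lowest mean in short-term lungs, not in long-term lungs as the globins had, but this order turned with the scaling. It had 2.36, 0.72 and 1.24 TPM in long-term libraries, 1.18, 0.84 and 1.62 TPM in short-term libraries and 2.22, 3.66 and 4.01 TPM in PBS libraries. Short-term libraries were all under PBS libraries, while long-term replicate 1 lay above PBS replicate 1. The log2 difference was -0.85 ± 0.26 between long-term and PBS lungs, -0.95 ± 0.26 between short-term and PBS lungs and 0.10 ± 0.26 between long-term and short-term lungs. At these low levels the added 1 TPM matters: with log2(TPM + 0.1) the first 2 of these were -1.24 and -1.37. The difference between long-term and short-term lungs turned negative under every other scaling of the libraries that was tried except that to the total without globin genes (0.075), at -0.13 with median-ratio scaling, -0.48 with quantile normalization and -0.40 with length and GC corrected. It also became -0.16 without long-term replicate 1 and -0.03 without short-term replicate 2. The same gene was at 0.0272 to 0.132 TPM per 1000 TPM of globin in long-term, 0.01996 to 0.0241 in short-term and 0.0406 to 0.0803 in PBS libraries, and the highest of all was long-term replicate 1.

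Of the 5 genes, 4 had all long-term libraries under all PBS libraries, against 17.4% of the 13991 tested genes that were lower without overlap. All 5 had at least 1 TPM in at least 3 libraries and so were among the tested genes, 4 of them at 1 TPM or more in all 9 libraries and Slc4a1 in 7. Their median log2 difference was -1.25, from -1.60 to -0.85, beside a median of 0.03 over all tested genes. Leaving out any 1 library moved the median to between -1.39 and -1.06. Since the genes were chosen for this contrast, nothing is read from these counts.

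Against short-term lungs, 4 of 5 were lower in long-term lungs without overlap, where 9.94% of tested genes were. The median was -0.87 beside 0.41 over all tested genes. The same long-term libraries enter here, and the genes were chosen with these values known, so nothing is read from this count either. Between short-term PM2.5 and PBS only Slc4a1 was lower without overlap, where 45.8% of tested genes were, and the median was -0.38 beside -0.34. Both comparisons of a PM2.5 group with PBS use the same PBS libraries. After median-ratio scaling, which moves the median gene of short-term against PBS to -0.05, the short-term differences of Hba-a1, Hbb-b1, Hbb-b2 and Alas2 were -0.12, -0.03, -0.01 and 0.02. Those for long-term PM2.5 against PBS were then -1.63, -1.29, -1.36 and -1.15. As deposited and after this scaling, the levels of these 4 genes in short-term lungs were thus about as far from PBS as that of the median gene, unlike Hba-a2 (0.59 as deposited). Other scalings did not keep this for every gene, with -0.97 for Hbb-b1 after quantile normalization and -0.92 for Hba-a1 once each library was corrected for transcript length and GC content by splines. Without short-term replicate 2, which held the lowest globin levels of its group, the short-term median of the 5 genes became -0.18, without PBS replicate 2 -0.19, and without short-term replicate 3 -0.59.

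Other genes of red cells and their precursors were taken from lists of 72 genes for other globins, haem synthesis, membrane, cytoplasm and regulators, of which 69 were in the table and 50 were tested. For these, limma's adjusted p is given, with a threshold of 0.05. In long-term against PBS lungs 1 of 50 rose, 2 fell and 47 did not pass, beside 9.51% higher and 1.72% lower of all tested genes. The median log2 difference was -0.08, beside 0.03. In this fit the other red cell genes thus had few calls and a median near that of all tested genes. The number of calls depended on the setting. Short-term libraries enter this comparison only through the spread, which the fit shares over the 3 groups. Without short-term replicate 1 the calls were 4 higher and 9 lower, and without short-term replicate 2 they were 2 higher and 3 lower. With the compared groups alone they were 7 higher and 10 lower, where 3881 of all tested genes were called instead of 1571. After the length and GC correction they were 2 higher and 10 lower.

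In short-term against PBS lungs 5 of the 50 rose and 24 fell, beside 11.7% higher and 40.3% lower of all tested genes, with a median of -0.32 beside -0.34. In long-term against short-term lungs 17 rose and 4 fell, beside 43.4% and 7.08%, with a median of 0.30 beside 0.41. Both splits moved with the scaling. After median-ratio scaling 11 rose and 14 fell in short-term against PBS lungs, and 7 rose and 15 fell in long-term against short-term lungs. After the length and GC correction these counts were 5 and 14, and 6 and 10. Without long-term replicate 1, 2 or 3 the long-term against short-term calls numbered 10, 12 and 12 in all.

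Haem synthesis genes other than Alas2 had no call in long-term against PBS lungs, where 9.51% of all tested genes rose and 1.72% fell. None of 14 passed, including Alas1, the housekeeping isoenzyme of Alas2, at 234.9, 222.2 and 255.0 TPM in long-term libraries, 94.0, 158.0 and 129.5 TPM in short-term libraries and 163.1, 166.8 and 150.4 TPM in PBS libraries. Alas1 thus lay higher in all long-term libraries, opposite to Alas2, with a log2 difference of 0.56 (adjusted p = 0.0548 in limma). It passed without short-term replicate 1 (adjusted p = 0.0022), without short-term replicate 2 (adjusted p = 0.0121) and with the compared groups alone (adjusted p = 0.00107). It also passed with median-ratio scaling (adjusted p = 0.0134), quantile normalization (adjusted p = 0.0245) and length and GC corrected (adjusted p = 0.00925). In long-term against short-term lungs Alas1 rose by 0.92 (adjusted p = 0.00225). Alad, which makes porphobilinogen, rose in short-term against PBS lungs by 0.54 (adjusted p = 0.00614). Fech, which inserts the iron, fell there by 1.03 (adjusted p = 0.00557), but with length and GC corrected its adjusted p was 0.159. Of the 14, 2 rose and 4 fell in short-term against PBS lungs (2 each without PBS replicate 3), beside 11.7% higher and 40.3% lower of all tested genes. In long-term against PBS lungs 3 rose and 1 fell without short-term replicate 1, and 1 rose without short-term replicate 2.

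Membrane and skeleton genes other than Slc4a1 also had no call in long-term against PBS lungs, with 0 of 9 tested and a median of -0.25 beside 0.03 over all tested genes. Without short-term replicate 1 or 2, 3 and 1 of them fell. After median-ratio scaling 2 fell, and after the length and GC correction 3 fell. In short-term against PBS lungs 8 fell and 1 rose, beside 40.3% lower and 11.7% higher of all tested genes. These counts became 2 and 0 once length and GC were corrected, and 5 and 0 without PBS replicate 1. Sptb, the beta spectrin of the red cell skeleton, has a long transcript and a low level. It averaged 0.940 ± 0.123 TPM in long-term, 0.303 ± 0.0902 in short-term and 1.49 ± 0.202 in PBS lungs (SD, n = 3 each). Its short-term difference from PBS was -0.93 (adjusted p = 0.00041 in limma), and -0.12 after the correction (adjusted p = 0.489). The long-term difference of Sptb from PBS was -0.36 (adjusted p = 0.0953). It passed with no filter (adjusted p = 0.036) and with quantile normalization (adjusted p = 0.00976). Tmod1, tropomodulin, which caps actin filaments, had 31.4 ± 2.24 TPM in long-term, 18.3 ± 5.88 in short-term and 46.5 ± 5.53 in PBS lungs (SD, n = 3 each). It fell in short-term against PBS lungs by 1.34 (adjusted p = 0.00103) and, corrected, by 1.01 (adjusted p = 0.000102). The long-term difference of Tmod1 from PBS was -0.55 (adjusted p = 0.152). It passed in 5 of 19 alternatives, among them median-ratio scaling (adjusted p = 0.0176) and the correction (adjusted p = 0.0026).

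Of 14 tested genes of red cell cytoplasm and late maturation, 1 fell and none rose in long-term against PBS lungs (2 fell without short-term replicate 1), beside 1.72% lower and 9.51% higher of all tested genes. In short-term against PBS lungs 6 fell and 2 rose, beside 40.3% lower and 11.7% higher of all tested genes. Without PBS replicate 1 or 2, 3 and 2 of them fell. Car2, carbonic anhydrase 2, fell by 1.02 (adjusted p = 0.00293, limma), and Prdx2, a peroxidase abundant in red cells, rose by 0.49 (adjusted p = 0.00294). The lung has its own sources of both.

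Of 9 tested erythroid regulators 1 rose and 1 fell in long-term against PBS lungs, beside 9.51% higher and 1.72% lower of all tested genes. In short-term against PBS lungs 6 fell, beside 40.3% of all tested genes. Without short-term replicate 1, 3 fell in long-term against PBS lungs. Gata1 and Klf1, transcription factors of red cell precursors, were at 0.42 to 1.06 TPM and 0.15 to 1.82 TPM and were not tested. Epor, the erythropoietin receptor, had log2 differences of -0.09 in long-term (adjusted p = 0.853, limma) and -0.48 in short-term lungs (adjusted p = 0.0279) against PBS, the second lost with median-ratio scaling (-0.18, adjusted p = 0.429) and quantile normalization (-0.03, adjusted p = 0.925), and also without any 1 PBS library (adjusted p = 0.0679 to 0.0768) or short-term replicate 2 (adjusted p = 0.0583). Zfpm1, the Gata1 partner, fell in long-term against PBS lungs by 0.72 (adjusted p = 0.0471), a call lost under 13 of 19 alternatives, among them the omission of any 1 long-term or PBS library (adjusted p = 0.0964 to 0.174). Myb, a regulator of blood progenitors that also acts in other dividing cells, was high in long-term lungs. Myb had 25.4, 19.3 and 26.5 TPM in long-term libraries, 0.71, 2.52 and 1.51 TPM in short-term libraries and 5.75, 6.32 and 6.15 TPM in PBS libraries. The groups did not overlap. It rose by 1.79 in long-term lungs (adjusted p = 0.00109) and fell by 1.52 in short-term lungs (adjusted p = 0.00106), each against PBS. Lmo2, a bridging protein of the erythroid factor complex that endothelium also uses, fell by 1.10 in short-term against PBS lungs (adjusted p = 0.00217).

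**Figure D4:**
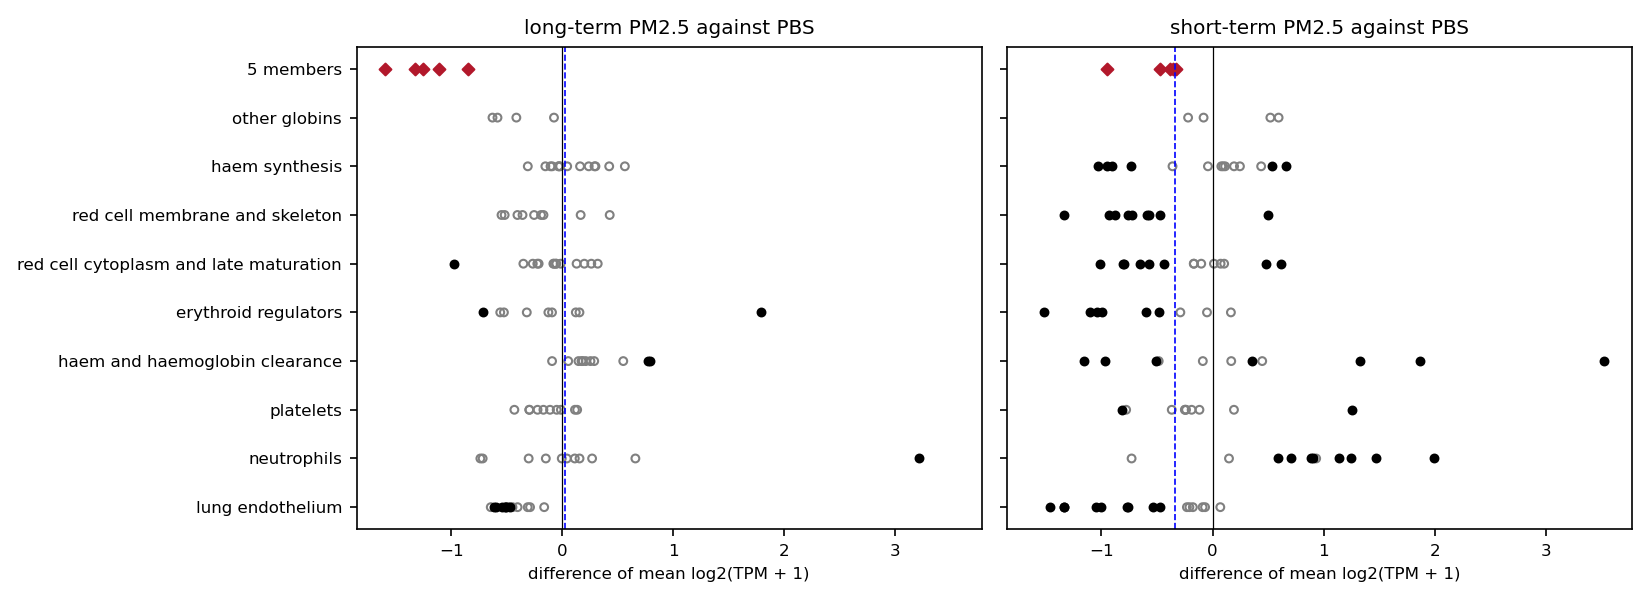
Difference of mean log2(TPM + 1) of each tested gene by list, for long-term PM2.5 against PBS (left) and short-term PM2.5 against PBS (right). Red diamonds are the 5 genes, black points genes with a limma adjusted p under 0.05, open points the others and the dashed line the median of all tested genes (0.03 left, -0.34 right); on the left the diamonds lie from -1.60 to -0.85, and 3 of 50 other red cell genes are black.

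Among genes for clearing free haemoglobin and haem, Hp and Hmox1 rose in both PM2.5 groups and Hpx in short-term lungs. Of 11 tested, 2 rose and none fell in long-term against PBS lungs, beside 9.51% higher and 1.72% lower of all tested genes. In short-term against PBS lungs 4 rose and 3 fell, of which 3 and 1 passed without PBS replicate 1, beside 11.7% higher and 40.3% lower. Hp encodes haptoglobin, which binds free haemoglobin, and had 1487, 1481 and 1548 TPM in long-term libraries, 2451, 2025 and 2126 TPM in short-term libraries and 881, 835 and 901 TPM in PBS libraries. No groups overlapped, and Hp rose by 0.79 ± 0.11 in long-term lungs (adjusted p = 0.00116, limma) and by 1.33 ± 0.11 in short-term lungs (adjusted p = 3.15e-05) against PBS. Haptoglobin is also an acute phase protein.

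Hmox1 encodes haem oxygenase 1, which opens the haem ring and is induced by haem and by oxidative stress. It had 85.5, 70.0 and 60.4 TPM in long-term libraries, 171.9, 149.4 and 142.1 TPM in short-term libraries and 37.0, 44.8 and 42.7 TPM in PBS libraries. It rose by 0.77 ± 0.15 in long-term lungs (adjusted p = 0.00665, limma) and by 1.87 ± 0.15 in short-term lungs (adjusted p = 2.76e-05) against PBS. Hpx encodes haemopexin, which binds free haem, and had 1.83, 2.10 and 1.76 TPM in long-term libraries, 23.3, 29.6 and 26.1 TPM in short-term libraries and 1.16, 1.71 and 1.27 TPM in PBS libraries. Its rise was seen in short-term lungs (3.52 ± 0.16, adjusted p = 6.71e-07), while the difference of long-term lungs from PBS was 0.29 (adjusted p = 0.332), and the direct comparison of long-term with short-term lungs gave -3.23 (adjusted p = 1.58e-06). Hmox1 and Hp were also lower in long-term than in short-term lungs, by 1.10 (adjusted p = 0.0005) and 0.54 (adjusted p = 0.00355, and 0.195 after quantile normalization). The order of these genes over the groups was thus not that of the globins, which were lowest in long-term lungs and overlapped between short-term and PBS lungs.

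**Figure D5:**
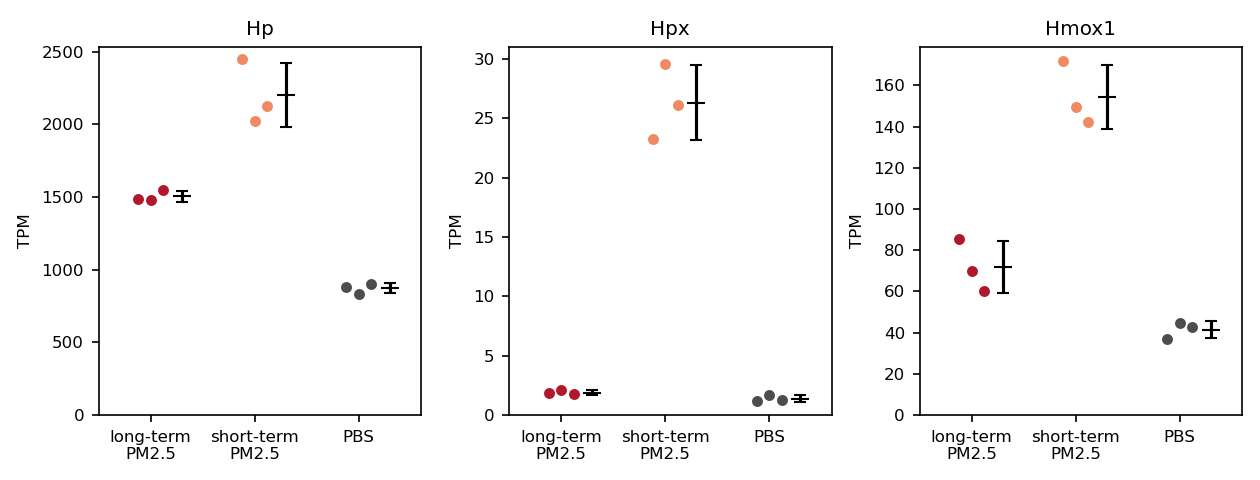
TPM (linear axes from 0) of Hp, Hpx and Hmox1 in each library, with mean and SD of 3. Hp, Hpx and Hmox1 are highest in the short-term libraries, at 2025 to 2451, 23.3 to 29.6 and 142.1 to 171.9 TPM, and Hp and Hmox1 are lowest in the PBS libraries, at 835 to 901 and 37.0 to 44.8 TPM.

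Markers of other cells of the blood and the vessel wall are given beside the globins. Of 10 tested platelet genes none passed in long-term against PBS lungs, beside 9.51% higher and 1.72% lower of all tested genes. The summed level of the 13 listed genes was 68.6 to 113.1 TPM in long-term, 124.4 to 133.6 TPM in short-term and 70.0 to 98.9 TPM in PBS libraries. Most of the short-term sum was Pf4, platelet factor 4, at 89.3 to 96.2 TPM, against 35.1 to 59.7 TPM in long-term and 35.8 to 41.1 TPM in PBS libraries. Pf4 rose by 1.26 in short-term against PBS lungs (adjusted p = 0.00076, limma), with 0.13 in long-term lungs (adjusted p = 0.799). Over the platelet list in short-term against PBS lungs 1 rose, 1 fell and 8 did not pass. The list median was -0.24, beside -0.34 over all tested genes, so the higher short-term sum was mainly that of Pf4. Of 11 tested neutrophil genes 1 rose in long-term and 8 in short-term lungs (5 without short-term replicate 2 or 3 or PBS replicate 1 or 2), beside 9.51% and 11.7% of all tested genes. The 13 listed ones summed to 493 to 834 TPM in long-term, 1051 to 1571 TPM in short-term and 388 to 642 TPM in PBS libraries. S100a8, a calcium-binding protein of neutrophils, rose by 1.997 in short-term against PBS lungs (adjusted p = 0.00105). The summed platelet and neutrophil levels overlapped between long-term and PBS libraries, and whether the amount of blood in the tissue differed between groups was not tested.

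Endothelial markers did move in the direction of the globins in long-term lungs. Of 15 tested, 6 fell and none rose against PBS, beside 1.72% lower and 9.51% higher of all tested genes. Their median log2 difference was -0.49, and 14 fell after the length and GC correction. The number that fell depended on the libraries, with 1, 3 and 4 without long-term replicate 1, 2 or 3, with 2, 4 and 3 without PBS replicate 1, 2 or 3, and with 13 and 9 without short-term replicate 1 or 2. Their summed level was 3600 to 3899 TPM in long-term, 3847 to 4485 TPM in short-term and 5061 to 5453 TPM in PBS libraries. Egfl7, a secreted protein of vessel endothelium, fell by 0.62 in long-term against PBS lungs (adjusted p = 0.00642, limma). Unlike the globins, the endothelial sum was also under the PBS range in short-term libraries. Of 9 alveolar type 2 markers 1 rose in long-term against PBS lungs (5 without short-term replicate 1), beside 9.51% of all tested genes. In short-term against PBS lungs 2 rose and 2 fell, beside 11.7% and 40.3%. There 1 rose when any library but long-term replicate 1 or short-term replicate 1 was left out. Their summed level was 48965 to 51586 TPM in long-term, 33110 to 39334 TPM in short-term and 45724 to 46897 TPM in PBS libraries, highest where the globins were lowest. Most of this sum was Sftpc, at 36276 to 38597, 19628 to 25410 and 35226 to 35731 TPM in the same groups. Not every marker had this order, as Sftpd was highest in short-term libraries (2297 to 2730 TPM). The part of the endothelial and type 2 cell content in the lower globin levels was not tested.

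Among the tested genes whose profile over the 9 libraries lay nearest to the mean of the 5 were Hspb1, Dhrs7c, Cox8b and Nova2. Likeness was the root mean square distance of log2(TPM + 1) values centred on each gene's mean, and it was 0.208 for Hspb1, 0.281 for Dhrs7c, 0.298 for Cox8b and 0.304 for Nova2. Among the 5 genes themselves it was 0.106 for Hbb-b1, 0.121 for Alas2, 0.132 for Hbb-b2, 0.276 for Hba-a1 and 0.482 for Slc4a1, so that Slc4a1 lay farther from the mean profile than any of these neighbours. Hba-a2, at 0.550, was in place 1175. Hspb1, a small heat shock protein, had 150.7, 209.1 and 231.7 TPM in long-term libraries, 295.0, 227.3 and 302.0 TPM in short-term libraries and 466.4, 459.8 and 398.4 TPM in PBS libraries. Unlike the globins it was separate between short-term and PBS libraries, and short-term replicate 2 reached into the long-term range. Nearness chose these genes, so no test of it is given.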

How the data were processed

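Whole-lung RNA of 9 samples was enriched for mRNA with oligo(dT), treated with duplex-specific nuclease and sequenced on DNBSEQ, per the labels' protocols. The authors deposited 1 table of TPM values for 18875 genes. The submitters' processing notes name HISAT2, Bowtie2, RSEM and DESeq2, without role or version, and the build GRCm38.p6 for 8 of 9 samples. TPM keeps no read numbers, so no counting error could be given.

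Differences are from limma 3.58.1 in R 4.3.3 on log2(TPM + 1), with 1 fit for all 3 groups (6 residual degrees of freedom, intensity trend), for the 13991 genes at 1 TPM or more in at least 3 libraries. P-values are two-sided, Benjamini-Hochberg adjusted over those genes, with a threshold of 0.05, and measure only the spread between these samples. The fit was also run on simulated data with independent noise for each gene. These held no trend shared within a library, such as that of the short-term libraries, and so do not bear on it. Shares, ratios and figures were made in Python 3.11.15. The 5 genes, the gene lists and the tests were chosen with earlier results of these data known. Besides the 5, the text could name all globins, the 3 called genes with the smallest p per list and comparison, a few set genes (such as Hp, Hpx, Hmox1, Epor and Fech) and the 5 nearest profiles, and it prints part of them. Some genes of the lists count in the totals but are not reported here by name. Alternatives were another pseudocount, no or a stricter filter, median-ratio, quantile and globin-free scaling, 2 groups alone, a replicate block, no trend, a spline correction for transcript length and GC content (221 tested genes, Hbb-b1 and Hbb-b2 among them, have no length in GENCODE M21) and each library left out in turn.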

Additional observations from a re-analysis of the deposited data

How the results depend on the processing

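The median log2 difference of the 5 genes between long-term and PBS lungs kept its sign in all 14 alternatives computed, as did the differences of each of the 5. With median-ratio scaling the median was -0.028 between short-term and PBS lungs and -1.26 between long-term and short-term lungs, and the length and GC correction gave no median because Hbb-b1 and Hbb-b2 have no length. With all globin genes the haemoglobin share was 2.48% in long-term and 5.38% in short-term lungs, against 1.64% and 3.46%. The 1571 calls between long-term and PBS lungs became 920 at a mean of at least 5 TPM, 2583 with quantile normalization, 3881 with the compared groups alone and 3550 with length and GC corrected, and 853 (without PBS replicate 1) to 3157 (without short-term replicate 1) with 1 library left out. It was 871, 983 and 992 without long-term replicate 1, long-term replicate 2 and PBS replicate 2. The 3 calls among other red cell genes became 5 with no filter, 6 with median-ratio scaling, 9 with quantile normalization, 17 with the compared groups alone and 12 with length and GC corrected, and 2 to 13 with 1 library left out. The 29 short-term calls became 19 with length and GC corrected. The 7061 calls between long-term and short-term lungs ran from 4621 (without long-term replicate 1) to 9168 (without short-term replicate 2), and among other red cell genes the 21 became 12 with the compared groups alone and 10 to 29 with 1 library left out. With length and GC corrected the short-term differences from PBS of Nova2 (0.064) and the long-term differences from short-term of Fech (-0.11), Sptb (-0.12) and Slc4a1 (-0.40) changed sign, that of Slc4a1 also with median-ratio scaling (-0.13) and quantile normalization (-0.48). Where no construction shows the cause, the cause was not tested. Same-numbered samples did not deviate together (r from -0.29 to 0.26 over 9 pairs, 1 of them over 0.1), so the numbers are not taken as pairs. With the replicate block 1125, 6376 and 6111 genes were called in long-term against PBS, short-term against PBS and long-term against short-term lungs. Depth is unknown, which limits Slc4a1 and other genes near 1 TPM most.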
